A study of Mus musculus with 8 samples.

Results

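The 10 genes Crx, Nrl, Nr2e3, Otx2, Rorb, Neurod1, Prdm1, Thrb, Rxrg and Mef2d encode the transcription factors that set photoreceptor fate and then drive the photoreceptor programme. They were chosen by name and looked up on the microarray through the RefSeq accession printed for each probe. This gave 13 probes for 9 of the 10 genes, out of 56605 probes and 22911 named genes on the array. No accession led to Rorb, so its level is not given. All 13 probes were well above background on all 8 arrays and entered the test.

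Photoreceptors are born from retinal progenitors that switch on Otx2, a homeodomain factor, and then Crx, its close relative and target. A cell on this path becomes a rod when Nrl is expressed, with Nr2e3 acting under Nrl to keep cone genes off, and otherwise takes on cone identity, in which the thyroid hormone receptor Thrb and its partner Rxrg set which opsin is made. In the mouse eye after birth most of these cells are rods that are building their outer segments, and Crx, Nrl and their partners hold the expression of opsins and other phototransduction genes high.

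RNA came from photoreceptor cells at postnatal day 8, with 4 arrays labelled Lpcat1 HZ and 4 labelled Lpcat1 KO, all on the strain C57BL/6. Lpcat1 encodes an enzyme that makes dipalmitoyl phosphatidylcholine, a lipid abundant in photoreceptors. Per the study's methods, the deletion was present in the whole body and not in photoreceptors alone, the HZ controls also carried 1 deleted copy, and mice homozygous for the rd8 allele of Crb1 were kept out. The cells were taken from dissociated retina with magnetic beads and an antibody to CD73, the product of Nt5e. The labels do not say whether the 4 samples of a group came from separate animals, so p-values measure only the spread between these samples, which may be technical.

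The normalized signal of a probe is its log2 signal minus the 75th percentile of its array, so that 0 is the level of that percentile and 1 unit is a doubling. Each difference is KO minus HZ, tested with limma, two-sided, with Benjamini-Hochberg adjustment over 34303 tested probes. Levels of different probes were not set against each other, because probes differ in how they bind, so no order of the genes by level is given. The 8 arrays lay on the same slide, with those labelled KO in row 1 and those labelled HZ in row 2, so the label and the place on the slide cannot be told apart. Lpcat1 itself, given by its brightest probe, did not differ beyond its spread. Its mean was -0.99 ± 0.15 (SD, n = 4) under HZ and -1.02 ± 0.14 under KO (limma adjusted p = 0.931). Where this probe lies relative to the deleted part is not known here. Its value therefore cannot check the genotypes, which are given as labelled. The sorting marker Nt5e was well above background on every array, at 4.33 ± 0.056 and 4.21 ± 0.11. With 4 arrays a group, their number limits the precision.

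The sequences upstream of Crx and Otx2 are shown because these factors bind the same short homeodomain core and act on their own and each other's genes. The core TAATCC, or GGATTA on the other strand, was searched in the 250 bases before each transcript start in RefSeq's table for GRCm38.p6. It was present in 6.25% of 32851 such windows, and in 3 of the 16 windows of the 10 factors. In the Crx window it occurs 2 times, starting 94 and 21 bases before the start, and in the window of 1 of the Otx2 transcripts it starts 211 bases before the start. The third factor with a match was Thrb, 46 bases before 1 of its starts. Capitals mark the core, and each window is written 5′ to 3′ on the gene's own strand.
Crx, chr7:15879956-15880205, minus strand, GRCm38.p6: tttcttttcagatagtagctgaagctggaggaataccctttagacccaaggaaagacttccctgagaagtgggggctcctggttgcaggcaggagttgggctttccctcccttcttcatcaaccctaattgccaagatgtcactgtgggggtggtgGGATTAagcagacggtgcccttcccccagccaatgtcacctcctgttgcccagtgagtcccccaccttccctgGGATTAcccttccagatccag
Otx2, chr14:48665110-48665359, minus strand, GRCm38.p6: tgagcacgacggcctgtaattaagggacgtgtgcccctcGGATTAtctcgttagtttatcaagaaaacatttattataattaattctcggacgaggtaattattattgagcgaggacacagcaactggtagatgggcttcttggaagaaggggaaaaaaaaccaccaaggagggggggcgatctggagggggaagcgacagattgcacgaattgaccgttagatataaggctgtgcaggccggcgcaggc

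Other short motifs of these factors were rarer among them. The sequence TGCTGAC, part of the site that Nrl binds, was found upstream of Rorb alone (3.81% of all windows). The E-box CAGATG, of the kind that Neurod1 binds, was found upstream of Otx2 and Nrl (14.4% of all windows). The nuclear receptor core AGGTCA was found upstream of Rxrg and Thrb (14% of all windows). These searches covered both strands, and a match describes letters only, not binding.

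Taken over all 9 measured factors, the arrays labelled KO and HZ differed little. All 9 differences were under 1.2-fold, as were those of 77.2% of all tested probes. With a fold above 1.2 and an adjusted p below 0.05 as thresholds, 0 of 9 factors passed, as did 0% of all tested probes. At the looser thresholds of the methods, 1.5-fold with an adjusted p below 0.5, again 0 of 9 passed, against a background of 0.813% of probes lower and 0.227% higher. At an unadjusted p under 0.05, 0 of 9 passed in limma, against 8.17% of all probes, 0 of 9 passed when the replicate number was a block (11.9%), and 2 passed in the methods' t-test (9.14% of all probes). Of the 9 factors 6 were higher and 3 lower under KO, where 50.5% and 49.5% of all tested probes were, with a median log2 difference of 0.051, while the median over 14848 tested genes was 0.029. For every factor the 95% interval of the difference lay within 1.5-fold in either direction, which held for 61.6% of all tested probes. For Nrl and Thrb it lay within 1.2-fold (8.38% of all tested probes). The shares of probes are over tested probes of any brightness, while each factor is given by its brightest probe.

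**Figure D1:**
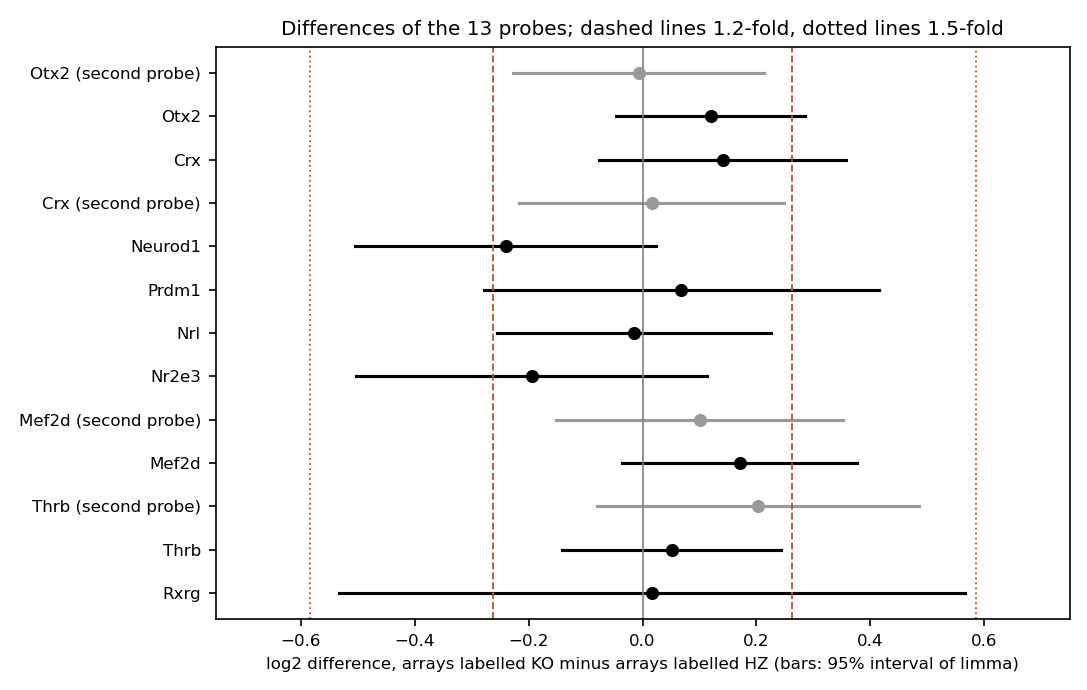
Log2 difference of each of the 13 probes, arrays labelled KO minus arrays labelled HZ (n = 4 each), with points for the limma estimate and bars for its 95% interval. Black marks the probe reported for a gene and grey a second probe of the same gene, and the dashed and dotted lines stand at 1.2-fold and 1.5-fold. All 13 intervals include 0 and stay inside the dotted lines, and that of Rxrg is the widest.

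Otx2 (chr14:48656781-48667644, GRCm38.p6) opens the photoreceptor path and commits progenitors to photoreceptor and bipolar fates. Its normalized log2 signal was 6.91, 6.87, 6.88 and 6.80 on HZ replicates 1 to 4, and 7.00, 7.02, 6.93 and 6.98 on KO replicates 1 to 4. Every array labelled KO was above every array labelled HZ, and complete separation upward was seen for 4.19% of all tested probes. The difference was 0.12 (standard error 0.072, 95% interval -0.046 to 0.29, limma adjusted p = 0.693), or 1.09-fold, and it was positive in 4 of 4 replicate numbers. The SD within a group, 0.049 under HZ and 0.037 under KO, was small beside this difference, but limma moderates such small spreads toward that of the other probes and gave an unadjusted p of 0.136. The methods' t-test, which does not, gave an unadjusted p of 0.00805 and an adjusted p of 0.372, within a range of adjusted p over the alternatives from 0.372 to 0.989.

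A second probe of Otx2, for another RefSeq transcript, did not separate the groups. Its normalized log2 signal was 3.82, 3.61, 3.73 and 3.91 under HZ and 3.80, 3.78, 3.83 and 3.62 under KO, and its difference was -0.0069 (standard error 0.096). With the mean of both probes the Otx2 difference was 0.056, and with normexp background correction it was 0.0059. The normexp alternative starts from the median signal of a spot, so it changes more than the background. The part of each change in its values was not tested.

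Otx2 is also a gene of the retinal pigment epithelium (RPE), whose markers were lower under KO. Of 19 tested RPE markers 18 had a negative difference and 11 were lower past the looser thresholds, against 0.813% of all tested probes. Their summed linear level, in multiples of an array's 75th percentile, was 18.6 to 45.2 under HZ and 9.18 to 16.5 under KO. The markers Tyrp1, Pmel and Rpe65 were well above background on all 8 arrays, so RPE transcripts were present in both groups. Rpe65, the retinoid isomerase of the RPE, had a log2 difference of -2.38 (standard error 0.54, adjusted p = 0.368). The part of RPE RNA in the Otx2 result was not tested. In such bulk RNA, fewer cells of a type and less RNA per cell cannot be told apart.

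Crx (chr7:15865947-15879955, GRCm38.p6), which switches on most rod and cone genes, was measured at 7.00, 6.85, 6.91 and 7.11 on HZ replicates 1 to 4 and at 7.23, 7.15, 7.07 and 6.98 on KO replicates 1 to 4. KO replicates 1 to 3 were above the HZ array with the same number by 0.23, 0.30 and 0.16, and KO replicate 4 was 0.12 below it (paired difference -0.12), so the groups overlapped. The difference was 0.14 (standard error 0.094, 95% interval -0.077 to 0.36, adjusted p = 0.712). The second Crx probe gave 5.17, 4.99, 4.88 and 5.21 under HZ and 5.04, 5.15, 4.98 and 5.14 under KO, with a difference of 0.016 (standard error 0.10).

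Neurod1 (chr2:79452637-79456636, GRCm38.p6), a basic helix-loop-helix factor that maintains photoreceptors and also acts in amacrine cells, had the largest difference among the 9. Its normalized log2 signal was 5.77, 5.61, 5.73 and 5.67 on HZ replicates 1 to 4 and 5.15, 5.59, 5.55 and 5.52 on KO replicates 1 to 4. Every array labelled KO was below every array labelled HZ, which held for 2.14% of all tested probes, although KO replicate 2 was below HZ replicate 2 by a paired difference of -0.012. A lower value in 4 of 4 replicate numbers, as Neurod1 showed, was found for 10.5% of all probes with a value in every pair. The difference was -0.24 (standard error 0.11, 95% interval -0.50 to 0.024, unadjusted p = 0.0695, adjusted p = 0.637), a ratio of 0.847. With 1 array left out the difference ran from -0.29, without KO replicate 2, to -0.14, without KO replicate 1, the lowest array. That array also had the lowest Nt5e signal of the KO group, 4.05 against 4.25 to 4.29, and the highest mean deviation of microglia markers, 0.77 log2 units above their mean over the 8 arrays. The part of these in the Neurod1 value was not tested.

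Prdm1, a zinc finger repressor that holds new photoreceptors away from the bipolar fate, varied more within the groups than between them. It was measured at 4.38, 4.06, 4.70 and 4.39 under HZ and at 4.50, 4.43, 4.65 and 4.22 under KO. The groups overlapped throughout, and the difference was 0.068 (standard error 0.15, 95% interval -0.28 to 0.42, adjusted p = 0.905). HZ replicate 2 was the lowest array for Prdm1. It was also the array with the highest levels of bipolar markers (mean deviation 0.78). KO replicate 4, the next lowest for Prdm1, had the lowest levels of bipolar markers (mean deviation -0.42). Whether these values are linked was not tested.

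**Figure D2:**
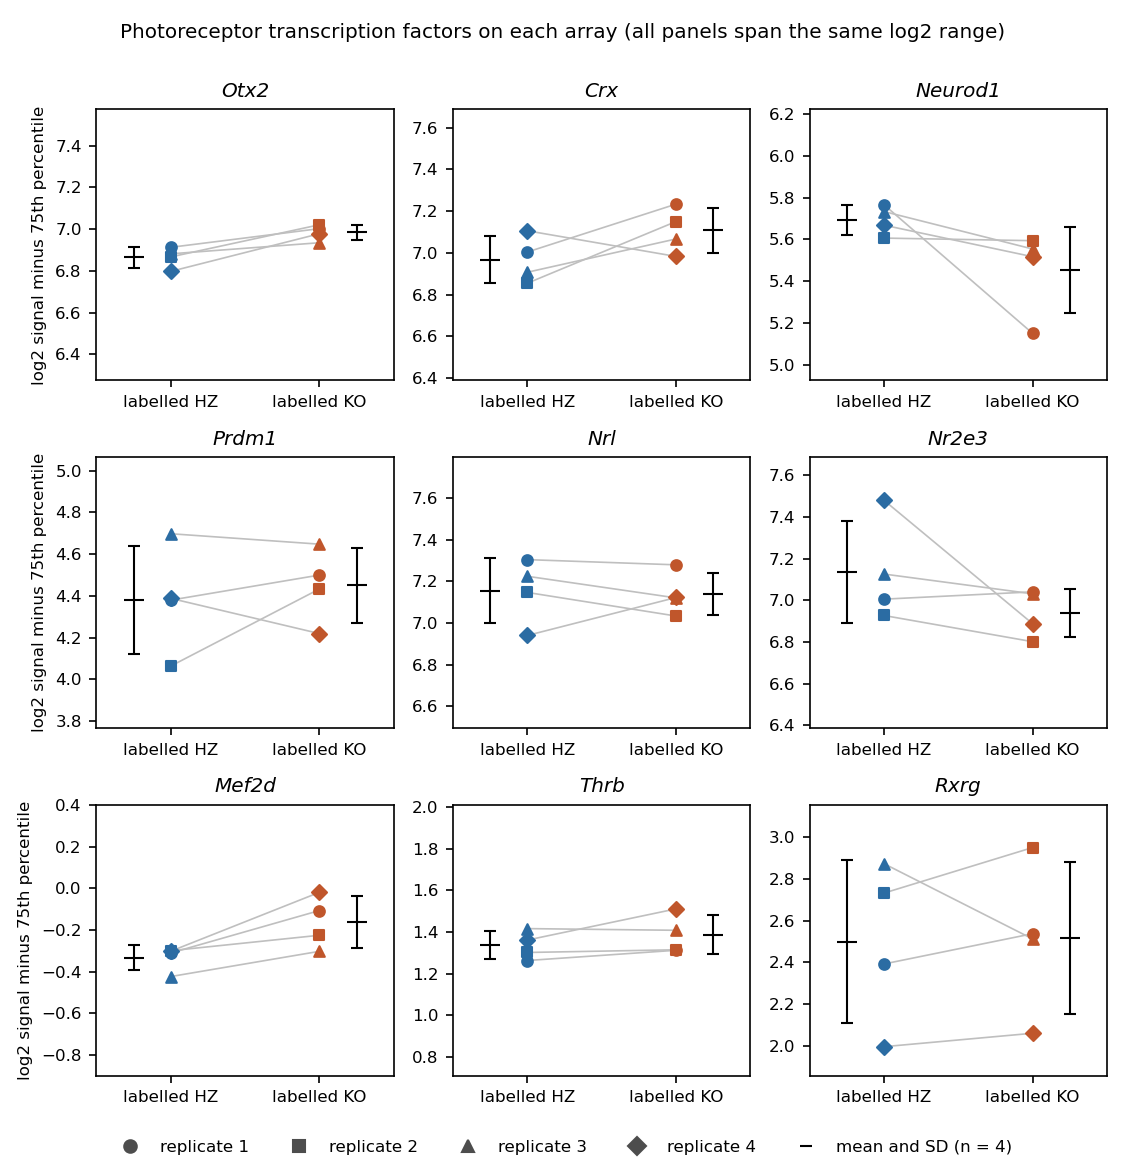
Normalized log2 signal (log2 signal minus the array's 75th percentile) of the 9 measured factors, a panel each, on the 4 arrays labelled HZ and the 4 labelled KO. Symbols mark the replicate number, grey lines join arrays with the same number, bars give the mean and SD (n = 4), and all panels span the same log2 range. Otx2 and Neurod1 separate the groups completely in opposite directions, Rxrg spreads widest by replicate number, and in Nr2e3 and Neurod1 a single array stands away from its group.

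Among the rod factors, Nrl, the leucine zipper factor without which rods take a cone-like fate, had overlapping values in both groups. Its normalized log2 signal was 7.30, 7.15, 7.22 and 6.94 on HZ replicates 1 to 4 and 7.28, 7.03, 7.12 and 7.12 on KO replicates 1 to 4. HZ replicate 4 was the lowest array and HZ replicate 1 the highest, and the difference was -0.015 (standard error 0.10, 95% interval -0.26 to 0.23, adjusted p = 0.974). In fold terms the interval ran from 0.838 to 1.17. With normexp background correction the difference was -0.17 (unadjusted p = 0.132).

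Nr2e3, the orphan nuclear receptor that represses cone genes in rods, was measured at 7.01, 6.93, 7.13 and 7.48 under HZ and at 7.04, 6.80, 7.03 and 6.89 under KO. HZ replicate 4 was the highest of the 8 arrays for Nr2e3 and the lowest for Nrl. The Nr2e3 difference was -0.19 (standard error 0.13, 95% interval -0.50 to 0.11, adjusted p = 0.718). With 1 array left out it ran from -0.26, without HZ replicate 2, to -0.079, without HZ replicate 4. On HZ replicate 4 the scanner software called 458 spots non-uniform (2 to 25 on each other array). Spots so called were left out, and the Nr2e3 spot of that array was kept, so it was not among them. The part of that array's quality in the value was not tested.

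Mef2d, a MADS-box factor that works with Crx at photoreceptor enhancers, was higher under KO in 4 of 4 replicate numbers, as were 14.9% of all probes with a value in every pair. Its normalized log2 signal was -0.31, -0.30, -0.42 and -0.30 under HZ and -0.11, -0.23, -0.30 and -0.019 under KO. KO replicate 3, the lowest of its group, lay level with HZ replicates 1, 2 and 4, and the difference was 0.17 (standard error 0.090, 95% interval -0.036 to 0.38, unadjusted p = 0.0939, adjusted p = 0.662). A second Mef2d probe also lay higher in 4 of 4 numbers, by 0.10 (standard error 0.11). With normexp background correction the Mef2d difference was 0.39 (adjusted p = 0.16, within a range from 0.16 to 0.902 over the alternatives).

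Of the cone factors, Thrb, the thyroid hormone receptor needed for the medium wavelength opsin, varied little. It was measured at 1.26, 1.30, 1.42 and 1.36 under HZ and at 1.31, 1.31, 1.41 and 1.51 under KO. The groups overlapped, with a difference of 0.051 (standard error 0.083, 95% interval -0.14 to 0.24, adjusted p = 0.870). Its second, dimmer probe gave -2.70, -2.56, -2.33 and -2.35 under HZ and -2.26, -2.47, -2.31 and -2.08 under KO, a difference of 0.20 (standard error 0.12, adjusted p = 0.693) that was positive in 4 of 4 numbers. Which receptor isoforms the probes read was not analysed here.

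Rxrg, the retinoid X receptor that restrains the short wavelength opsin in cones, was the most variable of the factors, and its variation followed the replicate number more than the label. Its normalized log2 signal was 2.39, 2.73, 2.87 and 1.99 on HZ replicates 1 to 4 and 2.54, 2.95, 2.51 and 2.06 on KO replicates 1 to 4. Replicate 4 was lowest under both labels and replicate 2 was high under both. The mean over both labels was 2.03 for number 4, 2.46 for number 1, 2.69 for number 3 and 2.84 for number 2, a range of 0.81 against a difference between labels of 0.017. That difference had a standard error of 0.24 and a 95% interval from 0.691-fold to 1.48-fold (adjusted p = 0.988), and a block for the replicate number brought the standard error to 0.12. The replicate number is also the slide column, and its part in the Rxrg level cannot be told apart from that of the samples.

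The 12 cone genes, such as opsins and cone transducin, were followed as a list beside both cone factors. Their mean deviation from each gene's own mean over the 8 arrays was -1.02, 0.44, 0.70 and -0.55 on HZ replicates 1 to 4 and -0.28, 0.18, 0.084 and 0.44 on KO replicates 1 to 4. On HZ arrays Rxrg was low where the cone genes were low, whereas on KO replicate 4 the cone genes were high and Rxrg was low. Thrb stayed within 0.25 log2 units from its lowest to its highest array. Of the cone genes 11 of 12 were higher under KO, against 8438 of 14848 tested genes. Their median was 0.22, which became -0.075 without HZ replicate 1 and 0.49 without HZ replicate 3. At the looser thresholds 0 of 12 passed. Arr3, the cone arrestin, had the largest difference, 0.49 (standard error 0.44), which omitting HZ replicate 1 lowered to 0.15 and omitting HZ replicate 3 raised to 0.79. Cngb3, a subunit of the cone channel, was the 1 cone gene whose groups did not overlap, at 0.34 (standard error 0.12, adjusted p = 0.537).

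The 20 rod genes, which Crx, Nrl and Nr2e3 are known to activate, were followed in the same way. Their mean deviation was 0.19, -0.069, -0.11 and 0.24 on HZ replicates 1 to 4 and 0.093, -0.18, -0.17 and 0.015 on KO replicates 1 to 4. Of the rod genes 15 of 20 were lower under KO, against 43.2% of all tested genes. Their median was -0.12, and 0 of 20 passed the looser thresholds. With 1 array left out the rod median ran from -0.18 (without HZ replicate 2) to -0.048 (without HZ replicate 4), while omitting HZ replicate 1 gave -0.064, omitting KO replicate 2 gave -0.054 and omitting KO replicate 3 gave -0.075. The rod transducin Gnat1 had a difference of 0.36 (standard error 0.25, or 0.19 without HZ replicate 3 and 0.20 without KO replicate 4), while Gnb1, the transducin beta subunit, had -0.73 (standard error 0.26, adjusted p = 0.546), or -0.48 without KO replicate 4. At the other end, Gnat1 was 0.50 without KO replicate 2 and Gnb1 was -0.93 without KO replicate 1. Gnb1 was at 5.60, 5.56, 5.37 and 5.50 under HZ and at 5.38, 5.07, 4.62 and 4.04 under KO, where only KO replicate 1 reached into the HZ range. With the replicate number as a block, Gnb1 passed the looser thresholds, as did 2.66% of all tested probes downward and 0.74% upward.

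**Figure D3:**
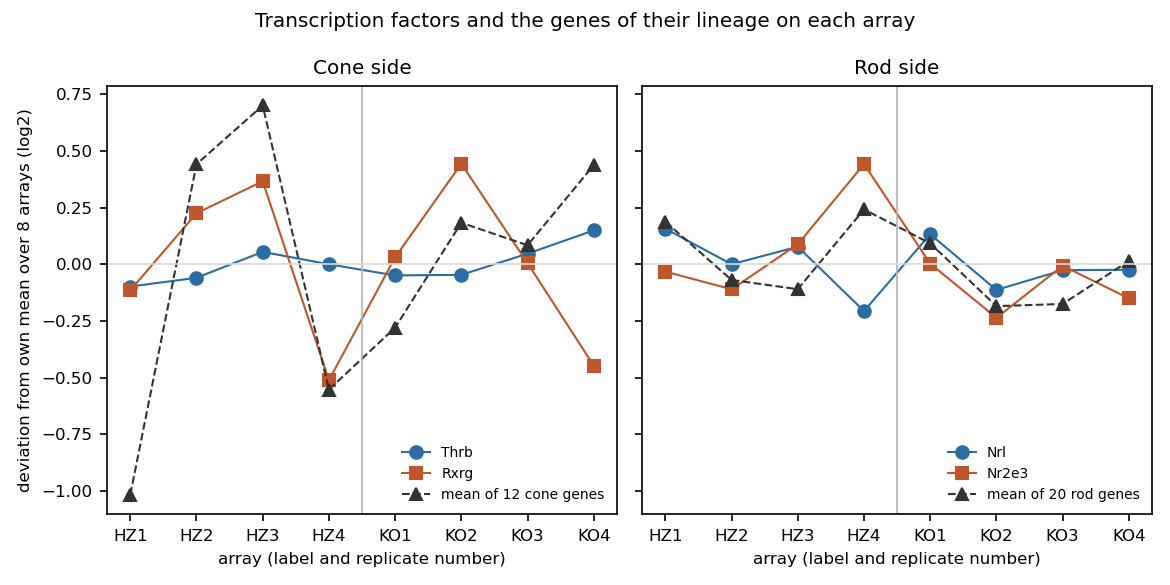
Deviation of each measure from its own mean over the 8 arrays, in log2 units, for the cone factors Thrb and Rxrg with the mean of 12 cone genes (left) and the rod factors Nrl and Nr2e3 with the mean of 20 rod genes (right), on each array by label and replicate number. Cone genes range from -1.02 to 0.70 while Thrb stays within 0.25 from lowest to highest, and Nrl and Nr2e3 part on HZ replicate 4.

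Beyond the named factors, 24 other regulators of photoreceptors were all tested, and 0 passed either pair of thresholds. Neurod2, a relative of Neurod1, had the largest difference of these, -0.64 (standard error 0.53), which became -0.19 on omitting HZ replicate 2 and -1.01 on omitting HZ replicate 1, and it was the 1 gene of the 24 past the looser thresholds with the replicate number as a block. In the list 13 were lower and 11 higher under KO, with a median of -0.12 that became 0.043 without HZ replicate 2. The partners of Thrb and Rxrg were among them. Rxra, a retinoid X receptor found in most cells, was at 5.17, 5.16, 5.20 and 5.25 under HZ and at 5.32, 5.55, 5.44 and 5.68 under KO, with no overlap and a difference of 0.30 (standard error 0.096, adjusted p = 0.498), a ratio below 1.5-fold. Thra, the other thyroid hormone receptor, was at 3.07, 2.98, 3.04 and 2.75 under HZ and at 3.19, 3.19, 3.07 and 3.30 under KO, again with no overlap, at 0.23 (standard error 0.099, adjusted p = 0.610). In limma without a block, these 2 genes were the only ones of the 24 with an unadjusted p under 0.05. They were also the only ones with separated groups. With the replicate number as a block, 4 of the 24 were lower and 2 higher at an unadjusted p under 0.05. These included Rxra but not Thra. Rax, a homeodomain factor that acts before Otx2 and in maturing photoreceptors, had a difference of -0.51 (standard error 0.27), and Samd11, a Polycomb component of rods, had -0.47 (standard error 0.22). Omitting HZ replicate 1 brought Rax to -0.61, and omitting HZ replicate 2 brought Samd11 to -0.62. Without HZ replicate 4, the array with 458 non-uniform spots, the differences were -0.27 for Rax and -0.25 for Samd11. The spots of both genes on that array were kept and so were not among the 458.

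Factors of progenitors and of other retinal fates made up the comparison list nearest to the photoreceptor factors, and 22 of 28 were bright enough to test. Of these 17 were lower under KO, against 43.2% of all tested genes. The median of the 22 was -0.33, which became -0.029 without HZ replicate 2 and -0.51 without HZ replicate 1. At the looser thresholds 0 of 22 passed. With the replicate number as a block, 3 passed, Neurog2 and Foxn4 among them, while 0 of the 9 photoreceptor factors did. Neurog2 was dim, and was well above background on only 2 arrays labelled HZ and 2 labelled KO. On HZ replicate 2 the mean deviation of the progenitor and other-fate factors was 0.97, with bipolar and Müller glia markers at 0.78 and 0.70. The mean deviation of the 9 photoreceptor factors on that array was -0.062, and over all arrays it lay between -0.062 and 0.076. The spread of the 9 factors within groups was likewise small, with a median pooled SD of 0.13 against 0.21 over all tested probes. Each factor is given by its brightest probe, and no probes of like brightness were compared.

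**Figure D4:**
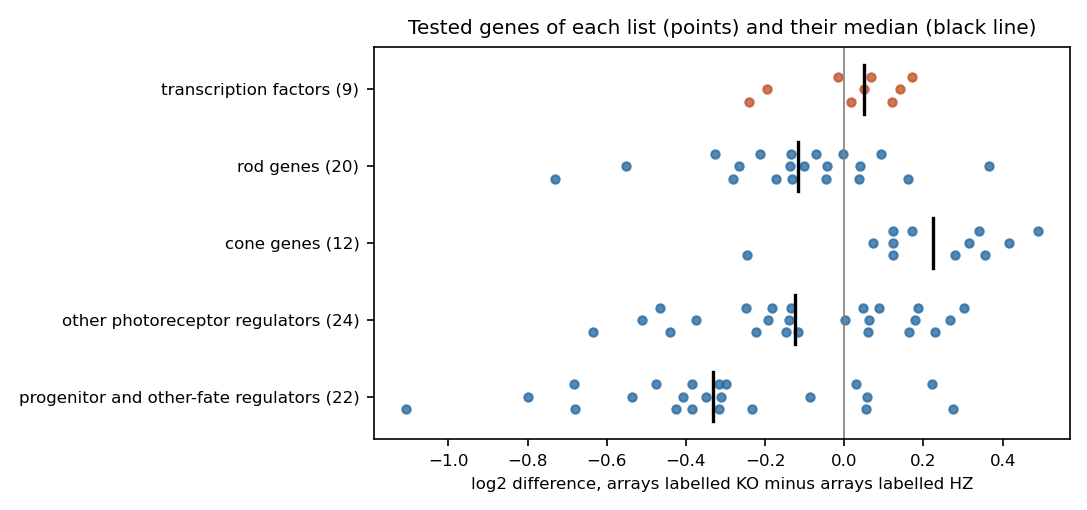
Log2 difference (arrays labelled KO minus arrays labelled HZ, n = 4 each) of every tested gene in each list, with a point per gene and a black line at the median of the list. The 9 photoreceptor factors (top) lie between -0.24 and 0.17 around a median of 0.051. The rod genes reach -0.73 and the progenitor and other-fate factors -1.11 (Neurog2, a dim gene near background).

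For several other cell types the median difference of their markers lay farther from 0 than that of the photoreceptor factors. Bipolar markers, which include cells that keep Otx2, were lower in 11 of 12 genes (median -0.35, or 0.0020 without HZ replicate 2) with 1 past the looser thresholds, and their summed level was 74.3 to 121 under HZ and 64.2 to 84.0 under KO. Müller glia markers had a median of -0.29 (0.025 without HZ replicate 2), microglia markers 0.75 with 12 of 12 higher and 1 past the looser thresholds, proliferation markers -0.052, and the 6 tested markers of amacrine, horizontal and ganglion cells 0.065. The 2 tested red blood cell genes had a median of 1.61. Omitting HZ replicate 1 took the bipolar median to -0.51 and the Müller glia median to -0.48. With 1 array left out the median of proliferation markers ran from -0.28 (without HZ replicate 1) to 0.14 (without HZ replicate 2), and that of amacrine, horizontal and ganglion markers from -0.042 (without HZ replicate 1) to 0.12 (without HZ replicate 2). When the replicate number was a block, the looser thresholds were passed by 8 of 12 microglia and 2 of 2 red blood cell markers upward, and downward by 15 of 19 RPE, 2 of 12 bipolar, 1 of 10 Müller glia and 1 of 10 proliferation markers. The part of these cells in the levels of the factors was not tested.

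For 3 of the factors, the genes with the most similar profile over the 8 arrays were looked up among 86 tested genes of the rod, cone, regulator and progenitor lists and the factors themselves. The measure of likeness was Pearson's r over arrays, given as a description because the genes were picked for it. Otx2 was most like Thra (r = 0.92, Spearman's rho = 0.90, r = 0.88 without the 2 arrays farthest from the median), and since both separated the labels, r carries that difference too. Crx was most like Casz1, a zinc finger regulator of photoreceptors (r = 0.64, rho = 0.71, r = 0.48 without 2 arrays). Nrl was most like Gngt1, the rod transducin gamma subunit (r = 0.58, rho = 0.52, r = 0.46 without 2 arrays), followed by Samd7, a rod corepressor (r = 0.53, rho = 0.67, r = 0.90 without 2 arrays).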

How the data were processed

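Gene expression of isolated photoreceptor cells at postnatal day 8 was measured on 8 single-color Agilent mouse arrays, grouped by their labels into 4 Lpcat1 HZ and 4 Lpcat1 KO. The authors deposited spot intensities that Agilent Feature Extraction 10.7.1.1 had corrected for background, and also log2 values that GeneSpring had shifted by the 75th percentile, used here as an alternative. The whole-retina arrays were not used here.

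The log2 intensity minus each array's 75th percentile was taken over spots that were not controls, without outlier spots, and averaged over the spots of each probe. The percentile lay between 882 and 1024 intensity units, an array had 59.5% to 64.6% of its probes well above background, and saturated spots numbered 0. Tests took in probes that were well above background on 4 or more arrays, with 3 or more values in each group. Names, gene positions and upstream sequences came from RefSeq tables of GRCm38.p6, in which 32994 of 56605 probes matched a gene by accession. A gene is given by its tested probe with the highest mean, and second probes of the 9 factors are named as such.

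Groups were compared in R 4.3.3 with limma 3.58.1 (lmFit, eBayes), reading files with jsonlite 2.0.0 and the data.table package, version 1.17.8. P-values were adjusted by Benjamini-Hochberg over all tested probes and the fit was tested on simulated data first. Plots were drawn with matplotlib 3.10.9 and sequences read with pandas 2.3.3 in Python 3.11.15. Alternatives were quantile normalization, normexp with an offset of 50 on the median signal of a spot (the mean signal was planned but not used here), another percentile base, other filters on dim probes, trend and robust eBayes, the methods' t-test, the authors' values, the mean of a gene's probes, the replicate number as a block, and each array left out.

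As a check on pairing, each array's deviation from its group mean was correlated across probes. Arrays of different groups with the same replicate number gave r between 0.172 and 0.337, all 4 above 0.1, and those with different numbers gave -0.337 to 0.117, so the numbers were taken to pair the arrays. The replicate number is also the slide column, so a pairing of samples and the place on the slide cannot be told apart. Standard errors, intervals and p-values come from fits without this pairing unless the block is named. Over all tested probes the block moved the calls at the looser thresholds from 279 lower and 78 higher to 913 and 254.

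The factors and gene lists were chosen with earlier results of these data known. Named are the 9 factors, Lpcat1, Nt5e, up to 5 genes of a list with the largest difference, genes past a threshold, and the genes most alike to Otx2, Crx and Nrl. Rxra and Thra were named after their values were seen. Some genes that the lists or this rule take in are not reported here.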

Additional observations from a re-analysis of the deposited data

Results flagged for a closer look

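In 4 of 34 groups of 4 arrays, a single array lay far from the other three by Dixon's criterion, where chance gives about 1.7. The Mef2d probe read -0.42 on HZ replicate 3 and -0.31 to -0.30 on the other arrays labelled HZ. The probe of Nt5e, the gene of the sorting antigen, read 4.05 on KO replicate 1 and 4.25 to 4.29 on the other arrays labelled KO. The mean deviation of the 9 photoreceptor factors was -0.055 on KO replicate 4 and 0.021 to 0.035 on the other arrays labelled KO. The scanner software called 458 spots non-uniform on HZ replicate 4, where the rest of its group had 2 to 22.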

How the results depend on the processing

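Under all 18 alternatives 0 of the 9 factors passed either pair of thresholds, the replicate block included, and the differences of Otx2, Crx, Neurod1, Nr2e3 and Mef2d kept their sign. Not every difference stayed under 1.2-fold there. At their extremes Mef2d reached 0.39 and Neurod1 -0.32, and Nr2e3 at -0.26 lay just past 1.2-fold. With the replicate number as a block, 0 of 9 factors had an unadjusted p under 0.05, the median difference was 0.051, and the block changed no call of a factor. At an unadjusted p under 0.05, quantile normalization and trend and robust eBayes each called 1 factor (Neurod1), normexp called 2 (Neurod1 and Mef2d), and the methods' t-test called 2 (Otx2 and Mef2d). Factors fully separated downward numbered 0 with quantile normalization and with a percentile taken over the probes detected on every array, and factors separated upward numbered 0 with quantile normalization and with the mean of a gene's probes. Leaving out 1 array at a time gave 1 to 2 factors separated upward, with 2 reached without KO replicate 3. The median difference of the factors was -0.013 with quantile normalization and -0.0010 with normexp, and 0.018 (without KO replicate 3) to 0.12 (without KO replicate 4) with 1 array left out.

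Differences near 0 changed sign. Prdm1 was -0.013 with quantile normalization and -0.0010 with normexp, Nrl 0.0017 with the authors' values (and -0.17 with normexp), Thrb -0.028 with normexp, Rxrg -0.023 with quantile normalization and -0.014 with the other percentile base, and Lpcat1 0.0049 with normexp. With 1 array left out, Prdm1 ranged from -0.039 to 0.17 (negative without HZ replicate 2), Nrl from -0.086 to 0.035 (positive when HZ replicate 1 or 3 or KO replicate 2 was left out), Rxrg from -0.15 to 0.17 (negative when HZ replicate 1 or 4 or KO replicate 2 was left out), Lpcat1 from -0.097 to 0.022 (positive without HZ replicate 1 or KO replicate 2) and Pde6c, a cone phosphodiesterase, from -0.038 to 0.69 (negative without HZ replicate 1). The cause was not tested. The median of all tested probes moved to between -0.028 and 0.022 over these settings. All 9 factors were well above background on every array, and with 4 arrays a group 7 of 9 had intervals wider than 1.2-fold. What set that width was not tested.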
